A study of Mus musculus with 2 samples.

Results

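The genes described here license and start DNA replication. They comprise the helicase subunits Mcm2, Mcm3, Mcm4, Mcm5, Mcm6 and Mcm7, the loading factors Cdc6 and Cdt1, the helicase activator Mcm10, and Pole, the catalytic subunit of the leading strand DNA polymerase. The 10 genes were taken by symbol and were found among the 19059 features of every count matrix. Their RNA was measured by single-nucleus RNA sequencing in 8 tumors of the dFLEx CDS mouse, a model of CIC::DUX4 sarcoma. The 2 groups held 4 tumors each, untreated and treated with Minnelide at 0.42 mg/kg for 21 days. Minnelide releases triptolide in the body and dissolves in water more readily. Triptolide acts on the XPB subunit of the transcription factor TFIIH and thereby on transcription by RNA polymerase II.

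All 8 tumors carried the dFLEx CDS allele, in which the CAG promoter drives CIC::DUX4 once both Cre and FLPE have recombined it. The genotype label of the untreated tumors was dFLEx CDS +/-, and the treated tumors had no genotype label. Per the study's methods the 2 recombinases came from plasmids electroporated into hind limb muscle, so a tumor can hold host muscle, stroma and more than 1 transformed clone, and the fusion is not under its own promoter. The label of the untreated group gives no treatment, and neither group has a label for age or sex. Per the study, the treated tumors were selected for a favorable or for a poor response to the drug, and these were not told apart here. Each of the 8 matrices was taken as 1 tumor, and tumor numbers are names that pair nothing.

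Origins are licensed in late mitosis and G1, when the origin recognition complex, Cdc6 and Cdt1 load the Mcm2 to Mcm7 ring onto DNA in an inactive form. In S phase the ring is joined by Cdc45 and GINS, Mcm10 helps to switch it on, and DNA polymerase epsilon, whose catalytic subunit is encoded by Pole, follows it on the leading strand. Most of these genes are classic targets of E2F transcription factors, are expressed in proliferating cells and are low in cells that have left the cell cycle. Cdt1 is also held in check by geminin and by proteolysis, which RNA does not show. Pole is in addition one of the known target genes by which the study scored CIC::DUX4 activity. It was not among the markers that named tumor nuclei here.

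The promoters are shown because an E2F site would be the textbook element that these genes share. Any part of such sites in the levels given below was not tested. RefSeq windows of 300 bases on GRCm38.p6 were at hand for 8 of the 10 members, and not for Mcm4 and Pole. A window ran from 250 bases before to 50 bases after the start of the transcript. The E2F letters searched were TTTCCCGC, TTTCGCGC, TTTGCCGC and TTTGGCGC on both strands, and matches are in capitals in the 4 windows below. Where 2 matches overlap, they form a single run of capitals.
Mcm3, chr1:20820263-20820562, minus strand: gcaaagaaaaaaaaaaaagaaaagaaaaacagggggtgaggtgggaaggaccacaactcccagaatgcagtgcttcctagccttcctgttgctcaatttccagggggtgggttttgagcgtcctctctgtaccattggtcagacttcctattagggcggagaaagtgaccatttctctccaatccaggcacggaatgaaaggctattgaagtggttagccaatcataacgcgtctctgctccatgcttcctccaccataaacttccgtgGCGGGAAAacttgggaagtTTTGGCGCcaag
Mcm5, chr8:75109259-75109558, plus strand: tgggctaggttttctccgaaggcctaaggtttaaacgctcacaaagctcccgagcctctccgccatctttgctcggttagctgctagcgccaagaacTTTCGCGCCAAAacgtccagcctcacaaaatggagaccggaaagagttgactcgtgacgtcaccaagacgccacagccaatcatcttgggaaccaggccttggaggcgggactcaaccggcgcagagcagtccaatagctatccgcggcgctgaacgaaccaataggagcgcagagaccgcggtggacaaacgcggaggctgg
Mcm6, chr1:128359656-128359955, minus strand: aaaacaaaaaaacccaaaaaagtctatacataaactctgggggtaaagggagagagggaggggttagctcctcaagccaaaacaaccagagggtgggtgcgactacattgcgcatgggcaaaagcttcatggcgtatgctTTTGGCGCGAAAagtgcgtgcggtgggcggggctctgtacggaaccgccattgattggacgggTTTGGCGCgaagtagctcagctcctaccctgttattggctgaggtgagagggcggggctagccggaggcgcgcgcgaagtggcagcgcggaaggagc
Mcm10, chr2:5012742-5013041, minus strand: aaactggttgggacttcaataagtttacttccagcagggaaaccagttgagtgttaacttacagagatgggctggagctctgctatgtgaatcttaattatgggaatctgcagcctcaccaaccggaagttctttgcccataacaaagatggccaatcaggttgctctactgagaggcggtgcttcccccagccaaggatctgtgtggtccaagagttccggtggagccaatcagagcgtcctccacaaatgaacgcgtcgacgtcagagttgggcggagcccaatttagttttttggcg

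At least 1 match was found in 6 of the 8 members with a window, Mcm3, Mcm5, Mcm6, Mcm7, Cdc6 and Cdt1, against 2.26% of the 32851 RefSeq windows of the same length. In Mcm5 and in Mcm6 a pair of matches on opposite strands overlaps, and Mcm6 holds a further match nearer to the start. No match to these letters was found within the windows of Mcm2 or Mcm10. The Mcm10 window ends in tttggcg, so a TTTGGCGC that runs past its edge could not be seen. The octamer bound by CIC, searched as TGAATGAA and TGAATGGA on both strands, was found in 0 of the 8 genes and in 2.47% of all windows. The CCAAT box, by its 5 letters on both strands, was found in 6 of the 8 genes and in 37.4% of all windows. The cell cycle homology region, searched as TTTGAA and TTCGAA, was found in 2 of the 8 genes, Mcm2 and Mcm7, and in 19.2% of all windows. A match is a string of letters, and binding was not measured.

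On GRCm39 the genes lie on 7 chromosomes. Mcm3 and Mcm6 are on chromosome 1 (20870791 to 20890536 and 128259311 to 128287516), and Mcm5 and Cdt1 on chromosome 8 (75836140 to 75856231 and 123294703 to 123300293). Mcm7 and Pole are on chromosome 5, from 138162844 to 138170684 and from 110434172 to 110486287. Mcm10 is on chromosome 2 (4994516 to 5017629), Mcm2 on chromosome 6 (88860452 to 88875762), Cdc6 on chromosome 11 (98798507 to 98814766) and Mcm4 on chromosome 16 (15440211 to 15455264). Only the span of Mcm7 overlaps other counted genes, Cops6 and Ap4m1, with strand left aside. Whether reads of these genes entered its count was not tested.

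The matrices held 18487409 to 73211599 unique molecular identifiers (UMIs) per tumor, each counting 1 captured RNA molecule. The median per nucleus was 883 UMIs in untreated tumor 4 and 2329 to 4031 in the other 7 tumors. After filters on damage and doublets 59907 nuclei were retained, of which 39105 fell into clusters that carried the CIC::DUX4 target genes fixed as tumor markers and are called tumor-like. None of these 7 markers was at 0 in tumor-like nuclei, and 10 of the 11 tumor-like clusters also carried at least 3 raised markers of another class. The clusters came mostly from single tumors, so the tumor-like nuclei of the 2 groups were held by different clusters (0, 1, 6, 13, 14 and 18 mainly untreated, 10, 11, 15, 20 and 21 mainly treated). Tumors with the same 2 constant barcode bases shared 49 to 132 barcodes, always 1 untreated and 1 treated tumor. Per the study's methods the libraries were made with on-chip multiplexing. The labels give neither chip nor sequencing run, so whether these differ between the groups is not known. Any part of them in the differences between groups was not tested. The 10 members gave between 2810 UMIs for Cdt1 and 12916 for Pole over the retained nuclei. This is few per nucleus, and levels below are therefore sums over the nuclei of a class in a tumor, scaled to a common number of UMIs in that class and written CPM, the usual unit of counts scaled by library total. Counts were not divided by gene length, so CPM are compared between tumors and classes and not between genes.

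**Figure D1:**
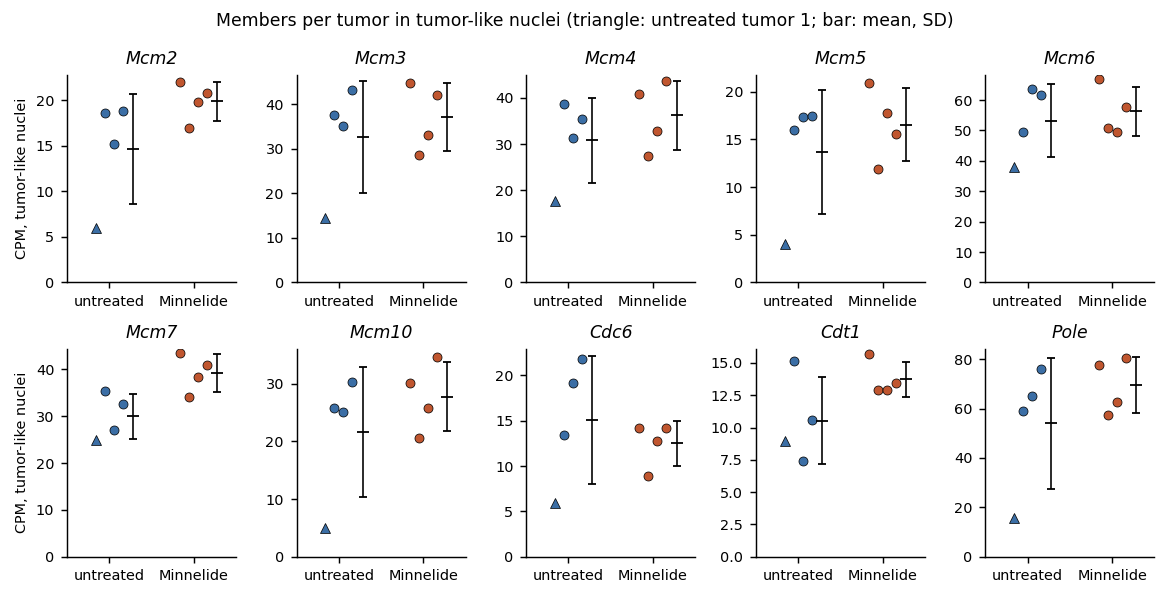
CPM of each of the 10 members in tumor-like nuclei (vertical axis, linear, from 0) for the 4 untreated and the 4 Minnelide tumors, 1 point per tumor, with mean and SD beside them. Untreated tumor 1, the triangle, is the lowest of all 8 tumors for 9 members, and the groups overlap for every member.

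In tumor-like nuclei untreated tumor 1 stood below the rest. It had the lowest level of all 8 tumors for 9 of the 10 members, all but Cdt1. Summed over the members, its level was 140 CPM, against 309, 307 and 348 CPM in untreated tumors 2, 3 and 4 and 377, 269, 306 and 364 CPM in Minnelide tumors 1 to 4. The other 3 untreated tumors lay inside the range of the Minnelide tumors.

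Cdc6, an ATPase that recruits the helicase to origins, was at 5.90, 13.4, 19.1 and 21.8 CPM in untreated tumors 1 to 4 and at 14.1, 8.85, 12.8 and 14.2 CPM in Minnelide tumors 1 to 4. Both the lowest and the highest values were untreated, and the treated tumors lay between them. Cdt1, its partner in loading, was at 8.96, 15.2, 7.44 and 10.6 CPM without treatment and at 15.7, 12.9, 12.9 and 13.5 CPM with it. Only untreated tumor 2 reached the treated range for Cdt1.

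Among the helicase subunits Mcm2 was at 5.96, 18.6, 15.2 and 18.9 CPM in untreated tumors and at 22.0, 16.9, 19.8 and 20.8 CPM in Minnelide tumors. Mcm3 was at 14.5, 37.5, 35.1 and 43.3 CPM and at 44.7, 28.5, 33.1 and 42.1 CPM in the same order. The groups overlapped for both genes, with untreated tumors 1 and 3 below the treated range of Mcm2 and untreated tumor 1 below that of Mcm3. Mcm4 was at 17.6, 38.6, 31.4 and 35.5 CPM untreated and at 40.9, 27.3, 32.8 and 43.8 CPM treated. Mcm5 was at 3.99, 15.98, 17.4 and 17.5 CPM untreated and at 21.0, 11.9, 17.7 and 15.6 CPM treated. For Mcm4 and Mcm5 only untreated tumor 1 lay below the treated range. For Mcm6 the untreated tumors had 37.9, 49.6, 63.8 and 61.7 CPM and the treated tumors 66.9, 50.8, 49.6 and 57.8 CPM. Mcm7 was at 24.9, 35.3, 27.1 and 32.7 CPM untreated and at 43.5, 34.1, 38.5 and 40.9 CPM treated. Mcm7 was the helicase subunit with the least overlap, since only untreated tumor 2 exceeded the lowest treated tumor.

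Mcm10, which acts after loading, was at 5.03, 25.9, 25.2 and 30.3 CPM in untreated tumors and at 30.2, 20.6, 25.8 and 34.6 CPM in Minnelide tumors. Pole was at 15.7, 59.0, 65.2 and 76.0 CPM untreated and at 77.7, 57.4, 62.8 and 80.6 CPM treated. In both genes untreated tumor 1 was low and the other 7 tumors intermixed. In 0 of the 10 members did the CPM of the groups not overlap, against 6.28% of all features with a count in tumor-like nuclei, or 0.844% with the Minnelide tumors higher.

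Other values of untreated tumor 1 differed as well. Its tumor-like nuclei held 533 CPM of 24 G2/M genes, a list that includes Mki67 and Top2a, against 1510 to 1695 CPM in the other untreated and 1290 to 2117 CPM in the treated tumors. They also held 3796 CPM of the 11 endothelial markers, against 392 to 791 CPM in the other 7 tumors, 9040 CPM of the 10 myocyte markers, against 404 to 5742 CPM, and 878 CPM of the 11 macrophage markers, against 201 to 450 CPM. The 7 tumor markers came to 12599 CPM, against 13083 to 19122 CPM, and the 15 CIC::DUX4 activity genes to 15286 CPM, against 20977 to 27625 CPM. Both of these lists hold Etv1, Etv4, Etv5, Shc3, Shc4 and Vgf, and the tumor markers also named the class. The 10 T/NK markers came to 131 CPM against at most 20.1 CPM, and the 6 B cell markers to 161 CPM against at most 8.13 CPM. None of the genes in these lists was at 0 in tumor-like nuclei, and their part in the low member levels was not tested. Per the study, 1 of 4 tumors held tumor cells with endothelial-like features, and their subcluster had reduced CIC::DUX4 activity. Whether that tumor is untreated tumor 1 was not tested. Untreated tumor 1 was also the lowest of 8 tumors for 8 members in fibroblast-like and for 7 in myocyte-like nuclei. It was so for 6 in endothelial-like and for 5 in macrophage-like nuclei. In osteoclast-like nuclei it was the lowest of 5 tumors for 2 members. Both of its tumor-like clusters were low, with 141 CPM of the summed members in the shallow cluster 0 (median 1320 UMIs in that tumor) and 140 CPM in the deep cluster 1 (median 9968 UMIs).

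The design asks whether Minnelide changed the level of these genes. Each tumor's counts were summed over tumor-like nuclei and tested across all genes with edgeR. Of the 10 members, all of which passed the filter on low counts, 0 were called at an adjusted p of 0.05, where 0.00% of the 12973 genes tested were called. With DESeq2 on the same sums 118 genes, 0.910%, were called, and 0 of them were members. At an unadjusted p under 0.05 edgeR gave 1 member, Mcm7, and 9.76% of all genes, or 2.31% when only higher genes are counted as Mcm7 was. The log2 fold change was positive for 9 of the 10 members, all but Cdc6, and for 49.3% of all genes. The members' median was 0.42, beside -0.01 for all genes tested.

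Mcm7 had a log2 fold change of 0.52 ± 0.18 (SE, n = 4 and 4), with an unadjusted p of 0.0201 and an adjusted p of 0.501 by edgeR's quasi-likelihood test with Benjamini-Hochberg adjustment. For Cdt1 it was 0.52 ± 0.25 (adjusted p = 0.517, edgeR). Mcm2 gave 0.55 ± 0.38 (adjusted p = 0.609, edgeR) and was the most positive. The values were 0.30 ± 0.36 for Mcm3, 0.35 ± 0.30 for Mcm4, 0.38 ± 0.47 for Mcm5 and 0.20 ± 0.23 for Mcm6. Mcm10 and Pole both stood at 0.47, with SEs of 0.51 and 0.46. Cdc6 alone was negative, at -0.16 ± 0.42 (adjusted p = 0.904, edgeR). For 6 of the 10 members, Mcm3, Mcm5, Mcm6, Mcm10, Cdc6 and Pole, the difference was thus near or below its own standard error.

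**Figure D2:**
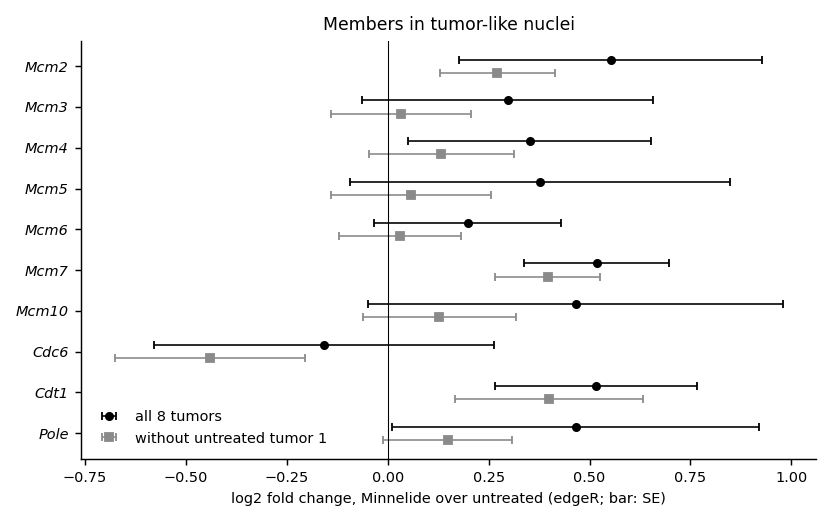
Log2 fold change of each member, Minnelide over untreated, in tumor-like nuclei (edgeR, bars are SE), from all 8 tumors (black circles) and without untreated tumor 1 (gray squares). Leaving out that tumor moves every member toward lower values, while Mcm7 and Cdt1 stay near 0.40.

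Without untreated tumor 1 the members' median fell to 0.13, beside 0.02 for all genes. Mcm3 was then at 0.03 ± 0.17, Mcm6 at 0.03 ± 0.15 and Mcm5 at 0.06 ± 0.20. Mcm4 was at 0.13 ± 0.18, Mcm10 at 0.13 ± 0.19 and Pole at 0.15 ± 0.16. Mcm7 kept 0.40 ± 0.13 (unadjusted p = 0.0166, adjusted p = 0.520, edgeR) and Cdt1 0.40 ± 0.23, and Mcm2 came to 0.27 ± 0.14. Cdc6 moved further down, to -0.44 ± 0.24 (adjusted p = 0.595, edgeR). Thus for Mcm3, Mcm4, Mcm5, Mcm6, Mcm10 and Pole, leaving out 1 untreated tumor removed most of the difference.

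Other genes of the replication program were taken from lists, and none of them was called by edgeR, where 0.00% of the 12973 genes tested were. The 27 replication fork genes all had positive values in tumor-like nuclei, with a median log2 fold change of 0.31, and 0 were called. They include Rfc5, a subunit of the clamp loader (0.58 ± 0.19, edgeR adjusted p = 0.501), the flap endonuclease Fen1 (0.39 ± 0.24) and Rpa3, of the single-strand binding complex (0.38 ± 0.24). Of the 16 origin firing genes 16 were higher and 0 called, with a median of 0.37. Among them cyclin A2, Ccna2, was at 0.69 ± 0.31, the checkpoint scaffold Topbp1 at 0.42 ± 0.27 and the firing factor Ticrr at 0.70 ± 0.47. Without untreated tumor 1 these 2 lists had 20 of 27 and 13 of 16 genes higher, with medians of 0.09 and 0.13.

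The 11 partners of the pre-replicative complex had 9 genes higher and 2 lower, with a median of 0.27. Orc4, a subunit of the origin recognition complex, was at 0.27 ± 0.11 (unadjusted p = 0.0454, adjusted p = 0.506, edgeR). The MCM binding protein Mcmbp was at 0.31 ± 0.14 and the paralog Mcm8, which acts in recombination, at 0.64 ± 0.31. As a level, this list hardly set untreated tumor 1 apart, with 708 CPM there and 651 to 846 CPM in the other tumors.

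E2F and pocket protein genes were higher in 11 of 13 cases, with a median of 0.23. E2f1, an activator of S phase genes, was at 0.76 ± 0.39, its dimer partner Tfdp2 at 0.25 ± 0.16, and Rb1, the retinoblastoma protein that restrains E2F, at -0.70 ± 0.39. The nucleotide supply list, which also holds Slbp and Uhrf1, had 9 of 10 genes higher, with a median of 0.28. Here Dut, which removes dUTP, was at 0.42 ± 0.23, thymidine kinase Tk1 at 0.59 ± 0.39, and the histone mRNA binding protein Slbp at -0.28 ± 0.21. The median was 0.56 for the 24 G2/M genes, all higher, with Ccnb2 at 0.56 ± 0.21, Ube2c at 0.59 ± 0.25 and Birc5 at 0.66 ± 0.31. Without untreated tumor 1 the medians of these 3 lists were 0.14, 0.13 and 0.29. None of the genes in these 3 lists was called by edgeR, where 0.00% of all genes tested were.

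CDK inhibitors, which hold back S phase, had 3 of 7 genes higher and a median of -0.06. Cdkn1b was at -0.35 ± 0.24, Cdkn1a at -0.37 ± 0.33 and Cdkn2b at 0.37 ± 0.40. For the 20 listed subunits of TFIIH and of RNA polymerase II, the machinery that triptolide acts on, the median was 0.09, with 14 higher. Within that list Cdk7 was at 0.21 ± 0.15, its cyclin Ccnh at 0.13 ± 0.10 and the polymerase subunit Polr2b at -0.16 ± 0.15. The study's CIC::DUX4 activity genes, a list that includes Pole and, as the study's own choice, is not independent evidence of its direction, had 12 of 15 higher and a median of 0.36. Myc was at -0.74 ± 0.25 (unadjusted p = 0.0185), the neuropeptide precursor Vgf at 0.93 ± 0.34 and the ETS factor Etv1 at 0.36 ± 0.26. By edgeR 0 genes of these 3 lists were called, where 0.00% of the 12973 genes tested were. The lowest adjusted p among them, 0.501 by edgeR, was also the lowest of all genes tested.

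Over all retained nuclei, a sum that needs no cluster names, the 10 members had positive log2 fold changes, as did 50.7% of the 13815 genes tested, with a median of 0.51 beside 0.01 for all genes. By edgeR 0 members were called, where 0.00% of all genes were, and DESeq2 called 1.22% of genes and 0 members. At an unadjusted p under 0.05 edgeR gave 1 member and 9.97% of all genes. Mcm7 was at 0.53 ± 0.21 (unadjusted p = 0.0333, adjusted p = 0.476, edgeR), and Cdc6 at 0.03 ± 0.43. Such sums also follow the share of tumor-like nuclei, which ran from 25.5% in Minnelide tumor 2 to 81.9% in untreated tumor 4. In these sums fewer cells of a type and less RNA per cell cannot be told apart. Without untreated tumor 1 the median was 0.24, with Cdc6 at -0.25.

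The same genes were then compared in fibroblast-like nuclei of the same tumors, a class whose nuclei depend on the clustering in Minnelide tumor 3. Again all 10 members passed the filter and had positive fold changes, as did 51.2% of the 11765 genes tested, with a median of 0.60 beside 0.01, and 0 were called, where 0.00% of all genes were called by edgeR and 0.331% by DESeq2. At an unadjusted p under 0.05 edgeR gave 0 members and 7.78% of all genes. The largest was Mcm2 at 0.77 ± 0.49 (adjusted p = 0.720, edgeR), and Mcm7 was at 0.57 ± 0.29 (adjusted p = 0.665, edgeR). The median was 0.31 without untreated tumor 1 and 0.36 without Minnelide tumor 3. Summed members in this class came to 85.1, 137, 180 and 178 CPM in untreated tumors and to 227, 144, 275 and 137 CPM in Minnelide tumors. Minnelide tumors 3 and 1 were the highest, and they also had the highest levels of the 7 tumor markers in fibroblast-like nuclei, 13556 and 9640 CPM, against 2228 to 5541 CPM in the other 6 tumors. Fibroblast-like cluster 23, with 1131 nuclei of which 95.8% came from Minnelide tumor 3, also carried tumor markers. With resolution 0.5, with cell cycle genes kept in the clustering or without the mitochondrial filter, that tumor had 602, 604 or 690 fibroblast-like nuclei in place of 1685, and 7174, 7112 or 7478 tumor-like nuclei in place of 6013. The members' median in fibroblast-like nuclei was 0.51, 0.37 and 0.45 under these 3 alternatives. The part of tumor RNA in the fibroblast-like values was not tested.

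The difference between the Minnelide effect in tumor-like and in fibroblast-like nuclei was tested as an interaction. It was below 0 for 8 of the 10 members, with a range from -0.43 for Cdc6 to 0.05 for Mcm4 and a median of -0.15, beside -0.07 for all 12738 genes, of which 40.8% were above 0. By edgeR 0 members were called, with adjusted p from 0.668 to 1.00, where 0.00% of all genes were called, and DESeq2 called 0.204% of genes. At unadjusted p under 0.05 there were 0 members and 8.65% of all genes. The direction of the median was not stable. It was 0.05 without Minnelide tumor 3, with 7 of 10 members above 0, 0.09 with cell cycle genes kept in the clustering, with 6 of 10 above 0, and 0.01 with doublets kept, with 5 of 10 above 0. For Mcm7 the difference was 0.00 ± 0.35 with all 8 tumors, so its higher level was not shown to be larger in tumor-like than in fibroblast-like nuclei.

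**Figure D3:**
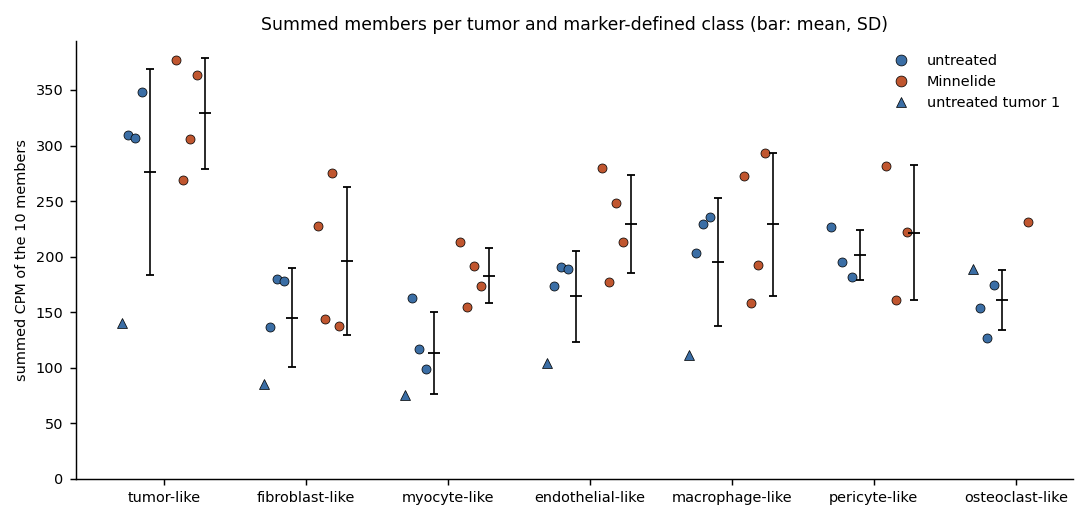
Summed CPM of the 10 members (vertical axis, linear, from 0) in each marker-defined class, 1 point per tumor with at least 50 nuclei of the class, blue for untreated and orange for Minnelide, with mean and SD. Tumor-like nuclei lie highest within each tumor except untreated tumor 1, where osteoclast-like nuclei lie higher, myocyte-like nuclei still carry the genes, and untreated tumor 1 (triangle) is lowest in 5 classes.

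Across cell classes the members were highest in tumor-like nuclei, although host classes carried them too. The summed level was 276 ± 92.4 CPM untreated and 329 ± 50.3 CPM treated in tumor-like nuclei (SD, n = 4 each). Endothelial-like nuclei had 164 ± 41.1 and 229 ± 44.4 CPM, macrophage-like nuclei 195 ± 57.5 and 229 ± 64.3 CPM, and fibroblast-like nuclei 145 ± 44.5 and 196 ± 67.0 CPM. Within a tumor, the tumor-like sum exceeded that of fibroblast-like, myocyte-like, endothelial-like and macrophage-like nuclei in 8 of 8 tumors each. It did so against pericyte-like nuclei in 6 of 6 and against osteoclast-like nuclei in 4 of 5 tumors, all but untreated tumor 1. The median ratio of tumor-like to class was 1.79 for fibroblast-like, 1.88 for myocyte-like, 1.56 for endothelial-like, 1.43 for macrophage-like, 1.47 for pericyte-like and 1.99 for osteoclast-like nuclei. These ratios are a description, since the classes come from clustering the same nuclei, though the members and other cell cycle genes were kept out of the clustering.

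Myocyte-like nuclei were taken as the class that should lack these genes, since muscle nuclei are postmitotic. Their summed level was 114 ± 36.9 CPM untreated, with 75.8, 163, 117 and 98.9 CPM in the 4 tumors, and 183 ± 25.0 CPM treated, with 213, 154, 191 and 173 CPM. The treated tumors were thus mostly higher in this class too, with only untreated tumor 2 inside their range. The 7 tumor markers in myocyte-like nuclei moved with them, at 2075 to 4535 CPM untreated and 5591 to 9878 CPM treated, with no overlap. Minnelide tumors 3 and 4 had just 72 and 54 such nuclei. The part of tumor RNA in the member levels of this class was not tested. The 24 G2/M genes were likewise found in myocyte-like nuclei, at 128 to 625 CPM untreated and 670 to 1153 CPM treated.

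Single members differed in how far tumor-like nuclei stood above myocyte-like nuclei of the same tumor. The median ratio was 2.59 for Mcm10, 2.30 for Mcm2, 2.11 for Mcm6, 2.10 for Mcm3, 2.06 for Mcm5, 2.05 for Cdt1, 2.02 for Pole and 1.71 for Mcm4, each higher in 8 of 8 tumors. It was only 1.21 for Mcm7, higher in 7 of 8 tumors. Mcm7 is the member whose span overlaps other genes, and any part of that overlap in the ratio was not tested. Cdc6 had no UMI in the myocyte-like nuclei of 2 tumors and was higher in tumor-like nuclei in 8 of 8. Cdt1 departed from the rest in osteoclast-like nuclei, where it stood above tumor-like nuclei in 5 of 5 tumors, at 32.1, 23.3, 10.5 and 11.2 CPM in untreated tumors 1 to 4 and at 18.2 CPM in Minnelide tumor 4. Those 5 values rest on 43 UMIs in all, 3 to 15 in a tumor.

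**Figure D4:**
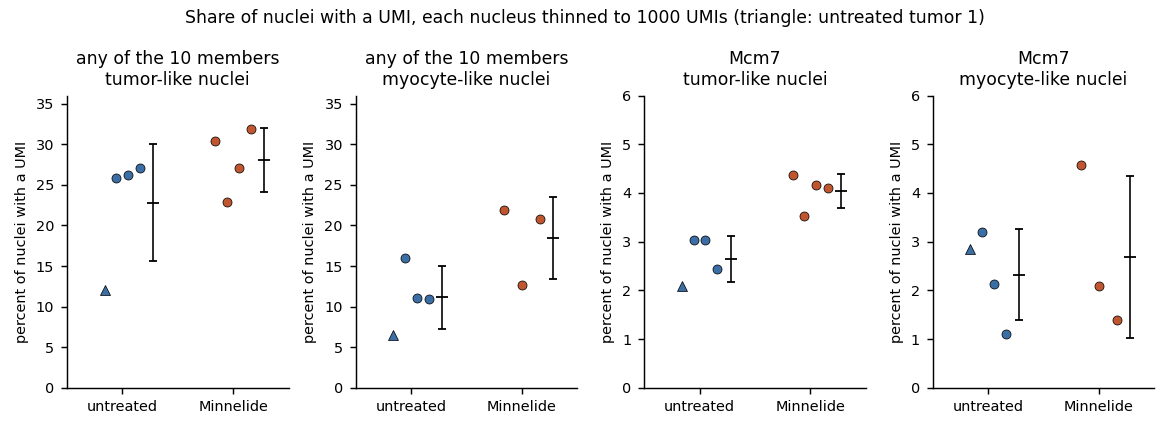
Percent of nuclei with at least 1 UMI of any member or of Mcm7 (vertical axes, linear, from 0) after thinning each nucleus to 1000 UMIs, in tumor-like and in myocyte-like nuclei, 1 point per tumor with at least 50 such nuclei, with mean and SD. The 4 Minnelide tumors lie above the 4 untreated ones for Mcm7 in tumor-like nuclei, at 3.53% to 4.37% against 2.08% to 3.04%.

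Depth differs between nuclei, so the share of nuclei with a UMI was taken after thinning each nucleus to 1000 UMIs. This left out 1143 shallower tumor-like nuclei of untreated tumor 1, 158 of tumor 2, 460 of tumor 3 and 5832 of tumor 4, and 0, 126, 0 and 128 of Minnelide tumors 1 to 4. At this depth a UMI of any member was found in 12.0%, 25.9%, 26.3% and 27.1% of tumor-like nuclei in untreated tumors and in 30.4%, 22.9%, 27.1% and 31.9% in Minnelide tumors. Untreated tumor 1 was again far below, and the rest overlapped. In untreated tumor 4 the shallow tumor-like cluster 18, with a median of 753 UMIs, held 399 CPM of the summed members. The deeper cluster 13 of that tumor held 302 CPM. The part of the nuclei left out in the share of that tumor was not tested. Unthinned, the means were 44.3% and 63.2%. In myocyte-like nuclei the thinned share was 11.1% ± 3.89 untreated (n = 4) and 18.4% ± 5.08 treated (n = 3, Minnelide tumor 4 having 49 such nuclei), at median depths before thinning of 2133 to 4262 UMIs in these 7 tumors, beside 811 to 4037 UMIs in tumor-like nuclei of all 8. The shares in tumor-like nuclei thus stood above those in myocyte-like nuclei in each of the 7 tumors with both values.

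UMIs of 2 or more members were found together in 3.40% ± 1.60 of tumor-like nuclei untreated and 4.31% ± 1.06 treated, and in 0.424% ± 0.246 and 1.86% ± 1.34 of myocyte-like nuclei. By member, the thinned shares overlapped between the groups for 9 of the 10, and only Mcm7 did not overlap, where 4.76% of all features with a UMI did not overlap and 1.13% did so with the Minnelide tumors higher. Mcm7 was found in 2.08%, 3.04%, 3.04% and 2.45% of nuclei untreated and in 4.37%, 3.53%, 4.16% and 4.10% treated, or 2.65% ± 0.47 and 4.04% ± 0.36. The value of untreated tumor 4 leaves out most of its shallow nuclei. In that tumor Mcm7 was at 39.8 CPM in the shallow cluster 18 and at 26.3 CPM in the deeper cluster 13. In myocyte-like nuclei the share of Mcm7 was 2.32% ± 0.93 and 2.68% ± 1.67. In untreated tumors 1 and 2 and in Minnelide tumor 1 that share, 2.85%, 3.21% and 4.57%, was above the tumor-like one, so no higher detection of Mcm7 in tumor-like nuclei is read there. Mcm5, too, was found in 1.73% ± 0.19 of treated tumor-like and 1.98% ± 1.27 of treated myocyte-like nuclei. Mcm10 stood further above, with 2.13% ± 1.17 and 2.69% ± 0.88 in tumor-like nuclei and 0.430% ± 0.199 and 0.807% ± 0.699 in myocyte-like nuclei. Pole was found in 5.03% ± 2.40 and 6.85% ± 1.21 of tumor-like nuclei, and Mcm6 in 5.12% ± 0.98 and 5.28% ± 1.20.

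Within the tumor-like nuclei of a tumor, members tended to be found together. The odds of a UMI of the other 9 members, given a UMI of one, were above 1 in 8 of 8 tumors for Mcm2 (median odds ratio 1.37, range 1.03 to 4.20), Mcm4 (1.18, 1.11 to 1.76) and Pole (1.28, 1.01 to 2.08). The odds ratios were above 1 in 7 of 8 tumors for Mcm3, Mcm7 and Cdt1, in 6 for Mcm5 and Mcm6, and in 5 for Mcm10 and Cdc6. With the replication fork list the odds ratio of any member was 1.29 (1.15 to 1.37, over 1 in 8 of 8 tumors), with the nucleotide supply list 1.22 (7 of 8) and with the origin firing list 1.11 (8 of 8). It was only 1.04 with the pre-replicative complex partners and 1.02 with E2F and pocket proteins (6 of 8 each). For comparison it was 1.01 with RNA polymerase II and TFIIH genes (6 of 8) and 1.00 with CDK inhibitors (4 of 8). These associations are weak, rest on sparse counts and are given as a description.

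Against the G2/M list the members parted ways. Mcm10 had an odds ratio of 2.02 (1.38 to 7.20, over 1 in 8 of 8 tumors), while Mcm6 had 0.84 (over 1 in 1 of 8), Mcm2 0.89 (2 of 8) and Mcm3 0.89 (3 of 8). To see whether this was graded, nuclei were split by their number of UMIs from the G2/M list at 1000 UMIs. Mcm10 was found in 1.52% ± 0.87 of nuclei with 0 such UMIs, in 2.56% ± 0.96 with 1 to 2, in 3.49% ± 0.45 with 3 to 5 and in 5.38% ± 1.79 with 6 or more (mean and SD over 8, 8, 8 and 5 tumors). It exceeded its share in the nuclei without such UMIs in every tumor of each bin. Mcm6 went the other way, from 5.63% ± 1.16 to 2.97% ± 1.72, lower in 5 of 5 tumors in the last bin. Mcm3 went from 3.82% ± 1.49 to 2.47% ± 0.95, also lower in 5 of 5, but was not graded. In the bins between it was at 3.35% ± 0.79 and 3.51% ± 1.23, above its share at 0 in 4 of 8 tumors each. Mcm2 went from 1.98% ± 0.66 over 1.81% ± 0.61 and 1.65% ± 0.56 to 1.75% ± 0.80, above in 1 of 8, 3 of 8 and 2 of 5 tumors. Mcm7 rose to 4.17% ± 0.80 at 3 to 5 UMIs (7 of 8 tumors above) and stood at 2.36% ± 1.48 in the last bin. No test was made of these bins, which were chosen after the odds ratios had been seen.

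**Figure D5:**
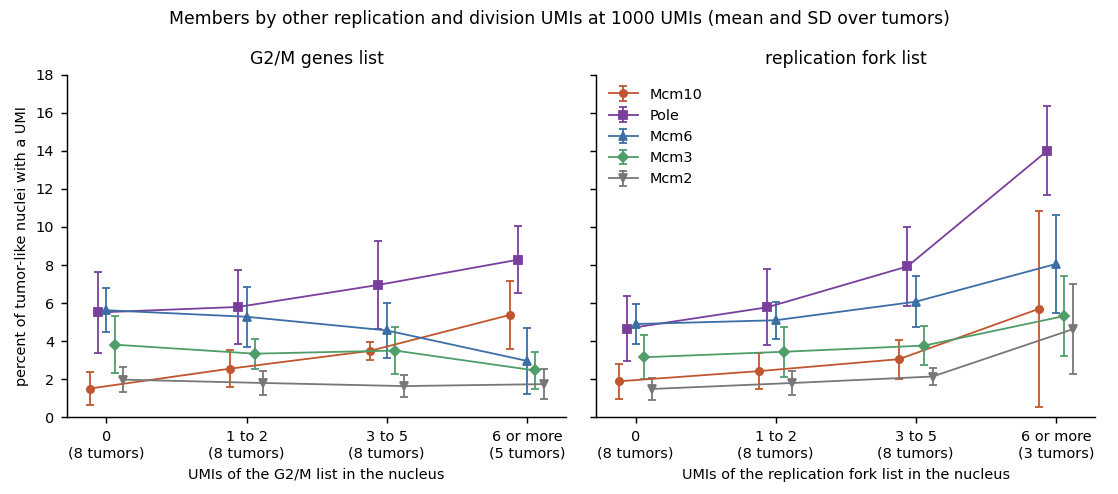
Percent of tumor-like nuclei with a UMI of Mcm10, Pole, Mcm6, Mcm3 or Mcm2 (vertical axis, linear, from 0) by the number of UMIs of the G2/M list (left) or of the replication fork list (right) in the nucleus, all at 1000 UMIs, as mean and SD over the tumors with at least 50 nuclei in the bin. Mcm10 climbs from 1.52% to 5.38% over the G2/M bins while Mcm6 goes from 5.63% to 2.97%, and Pole climbs from 4.67% to 14.0% over the replication fork bins.

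By UMIs of the replication fork list the share of nuclei with any member went up, while single members differed in the last bin. Any member was found in 22.3% ± 5.25 of nuclei with 0 such UMIs, in 25.2% ± 5.85 with 1 to 2, in 30.4% ± 5.08 with 3 to 5 and in 38.6% ± 4.05 with 6 or more, the last from 3 tumors and 379 nuclei. The share was above that at 0 in every tumor of each bin. Pole went from 4.67% ± 1.70 over 5.78% ± 1.99 and 7.93% ± 2.08 to 14.0% ± 2.33. Mcm6 reached 6.08% ± 1.34 at 3 to 5 UMIs from 4.90% ± 1.06 at 0, higher in 7 of 8 tumors, and Cdc6 2.03% ± 0.75 from 1.04% ± 0.59, higher in 8 of 8. With 6 or more UMIs, however, Cdc6 was at 0.629% ± 1.09, Cdt1 at 0.941% ± 0.962 (0.994% ± 0.255 at 0) and Mcm4 at 3.37% ± 2.54 (2.91% ± 0.87 at 0), each above its share at 0 in 1 of 3 tumors. By UMIs of RNA polymerase II and TFIIH genes, taken for comparison, any member stayed at 25.2% ± 6.01, 25.7% ± 6.17 and 24.9% ± 6.26 in nuclei with 0, 1 to 2 and 3 to 5 UMIs.

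Of 9377 genes, those whose level followed the summed members most closely over 51 points of tumor and class were Lmnb1 (r = 0.90), Hells (0.90), Top2a (0.90), Atad2 (0.90), Ezh2 (0.89), Blm (0.89), Brip1 (0.89), Kntc1 (0.89), Cbx5 (0.89) and Atad5 (0.89). Lmnb1 encodes lamin B1, Hells a chromatin remodeler, Ezh2 a histone methyltransferase and Blm and Brip1 helicases of DNA repair. The points share libraries, depth and cell makeup, so r is a description of likeness. Over the tumor-like nuclei of the 8 tumors alone, 3 of the 10 recurred among the closest, Hells, Atad2 and Kntc1, together with Cenpi, Pola2, Setdb1, Rad54b, Nup133, Chek2 and Dlgap5.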

How the data were processed

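Nuclei of 8 tumors were sequenced with a 10x Genomics 3′ kit, and the authors deposited UMI counts per gene and nucleus as 1 matrix per tumor. Per the submitters' processing notes they used bcl2fastq 2.20, Cell Ranger 7.0.1 and mm39, whereas the file headers name Cell Ranger 9.0.1. Per the study's methods intronic reads were included. Matrices held called nuclei only, 72338 in all before filtering. Damaged nuclei were removed by a mixture of 2 regressions of mitochondrial percent on detected genes, at a posterior of 0.75, and a minimum of 200 genes was set. Doublets were removed by Scrublet score (scanpy 1.11.5) at 0.8% per 1000 nuclei. Nuclei were clustered together (2000 variable genes without members, cell cycle genes and markers, 30 components, 40 neighbors, Leiden at resolution 1.0, igraph 0.11.9) without integration.

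Each cluster was named by the marker list that was raised most on average over the 10th percentile of the tumor's clusters after adding 20 CPM, with at least 3 markers raised 1.5-fold in at least 5% of nuclei. It stayed unnamed where its leading genes matched the largest cluster of another class. This rule was set with clusters and class counts known, ahead of every test of Minnelide against untreated. The unnamed nuclei came to 737. The members and all gene lists were chosen with earlier results of these data known. Sums per tumor were tested with edgeR 4.0.16 (glmQLFit, TMM, filterByExpr, Benjamini-Hochberg over all genes, threshold 0.05), with DESeq2 1.42.0 as an alternative, after tests on simulated data. Fold changes are Minnelide over untreated, with SE from the F statistic. Classes with under 50 nuclei in a tumor gave no value. Named were all members, at most 3 genes of each list by smallest unadjusted edgeR p in tumor-like nuclei, and 10 genes for likeness (Pearson r of log2(CPM + 10)). Words on treatment response in file names are absent from the labels and were not used. The labels do not say whether the tumors came from separate mice, so p-values measure only the spread between these tumors.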

Additional observations from a re-analysis of the deposited data

Results flagged for a closer look

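Among 66 sets of 4 tumors (each member and the sum of all 10, as CPM in tumor-like and in all retained nuclei and as percent at 1000 UMIs, in either group), 5 had a tumor far from the other 3, by a gap that exceeded Dixon's 95% critical share of the whole range. Chance marks about 1 in 20 such sets, and the sets share tumors. Mcm5 stood at 3.99 CPM in tumor-like nuclei of untreated tumor 1, against 15.98 to 17.5 CPM in the other 3 untreated tumors. In all retained nuclei of the same tumor Mcm5 was at 3.54 CPM, against 13.0 to 14.8 CPM. A UMI of any of the 10 members was found in 12.0% of its tumor-like nuclei at 1000 UMIs, against 25.9% to 27.1%. Cdc6 was at 5.96 CPM in all retained nuclei of Minnelide tumor 2, against 12.5 to 13.6 CPM in the other treated tumors. That tumor also had the smallest share of tumor-like nuclei, 25.5%, and Cdc6 in its tumor-like nuclei was at 8.85 CPM. Cdt1 was found in 1.53% of tumor-like nuclei of untreated tumor 2, against 0.834% to 0.904% in the other untreated tumors.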

How the results depend on the processing

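No paired analysis was possible because the tumor numbers follow file order and pair nothing. The members' median difference of effect turned from -0.15 to 0.05 without Minnelide tumor 3, to 0.09 with cell cycle genes kept in the clustering and to 0.01 with doublets kept. No member was called by edgeR or DESeq2 in any comparison under any alternative run. DESeq2 called 118 genes in tumor-like, 169 in all retained and 39 in fibroblast-like nuclei and 26 for the difference of effect, where edgeR called 0, and clustering each tumor alone gave 114 for that difference. Leaving out 1 tumor at a time gave 0 to 1 genes in all retained nuclei, the 1 without Minnelide tumor 2. The cause of these changes was not tested. Of 506 values of single members under alternatives, 496 kept their direction. The rest were 9 values of Cdc6 and 1 of Mcm6. Cdc6 ran from -0.44 to 0.072 in tumor-like and from -0.25 to 0.29 in all retained nuclei as single tumors were left out, and from -0.11 to 0.50 in fibroblast-like nuclei, where Mcm6 ran from -0.0027 to 0.40. With library totals Cdc6 was at -0.083, and with nuclei thinned to 1000 UMIs at -0.056, in all retained nuclei. In fibroblast-like nuclei 6 of 10 members passed the filter after thinning. The difference between groups in the percent of tumor-like nuclei with any member was 5.27 percentage points at 1000 UMIs, 8.23 at 2000 UMIs and 18.9 without thinning, where depth per nucleus differs between tumors. It was 1.67 points without untreated tumor 1. Of the 10 genes most like the members, 5 were shared with Spearman's correlation and 3 with tumor-like nuclei alone. Leaving unnamed every cluster with markers of a second class left 45366 nuclei unnamed and too few tumor-like nuclei for a fit.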
